A study of Mus musculus with 2 samples.

Results

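The genes described are 10 transcription factor genes that record limb position, Hoxa9, Hoxa10, Hoxa11, Hoxc8, Hoxc9, Hoxc10, Hoxd8, Hoxd9, Pitx1 and Tbx4, taken by name out of 31253 genes in the count matrices. Cells were collected from the periosteum, the membrane that covers bone, of femurs and tibias of 8-week-old mice, sorted for the Ai9 reporter and captured on the BD Rhapsody system in 2 libraries, 1 for each genotype. The control library came from Prx1 Cre; Ai9/+ mice and the other from Prx1 Cre; Ai9/+; Piezo1 fl/fl mice, so that both carried the Cre and the reporter and only the latter carried the floxed Piezo1 alleles. Prx1 Cre is driven by a limb enhancer of Prrx1 that is active in limb bud mesenchyme, and Ai9 makes a red fluorescent protein in cells in which Cre has acted and in their descendants. The number of mice behind each library is not given in the labels. With 1 library per genotype there were no replicates, which leaves nothing to test, and each interval given is an exact 95% interval that covers counting error alone.

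Hox genes lie in 4 chromosomal clusters, Hoxa to Hoxd, and are switched on in the embryo in the order of their position, so that genes with higher numbers mark more posterior levels of the trunk and more distal parts of the limb. Hoxa9 to Hoxa11 pattern limb segments, and Hoxc8 to Hoxc10 are genes of the posterior trunk and the hindlimb. Pitx1, a homeodomain factor, and Tbx4, a T-box factor, are known for specifying the hindlimb, while Tbx5 is the corresponding T-box factor of the forelimb. Adult connective tissue cells keep much of this positional pattern. The comparison of lineages asks which of the sorted cells carried it.

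After filtering, 4418 cells remained in the control library and 5084 in the Piezo1 fl/fl library. They were clustered without the 10 genes and without the other Hox and limb genes listed here, and each cluster took its lineage from counts of 8 marker genes. The control library held 3531 mesenchymal, 294 mural, 174 endothelial and 396 blood cells, and 23 cells of a cluster with both mesenchymal and blood markers were left out. The Piezo1 fl/fl library held 4058 mesenchymal, 363 mural, 141 endothelial and 522 blood cells. Mural cells are the smooth muscle cells and pericytes of vessel walls. Median depth per cell was 5168 and 4866 UMIs (unique molecular identifiers, each standing for a captured mRNA molecule) in mesenchymal cells of the control and Piezo1 fl/fl libraries, against 3022 to 4020.5 in the other lineages. Prrx1, the gene whose enhancer drives the Cre, stood at 927 and 738 CPM (UMIs of a gene per 1000000 UMIs of all genes in the group of cells) in mesenchymal cells, 221 and 221 in mural cells, 58.7 and 71.4 in endothelial cells and 55.1 and 48.0 in blood cells. The presence of vascular and blood cells after a sort for Ai9 was not explained by any label. Piezo1, a mechanically gated ion channel gene, gave 97 UMIs (4.48 CPM) in control and 46 UMIs (1.94 CPM) in Piezo1 fl/fl mesenchymal cells. The deleted part of the gene is not given in the sources used here, so these counts of 3′ tags are no check of the deletion. The libraries shared 50 cell barcodes.

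The 10 genes lie at 5 places in the genome (coordinates of GRCm38, from GENCODE vM21). On chromosome 6, on the minus strand, are Hoxa9 (52223100 to 52231089), Hoxa10 (52231197 to 52240854) and Hoxa11 (52242106 to 52245810). On chromosome 15, on the plus strand, are Hoxc10 (102966796 to 102971893), Hoxc9 (102976439 to 102985099) and Hoxc8 (102990607 to 102994111). On chromosome 2, on the plus strand, are Hoxd9 (74697727 to 74700208) and Hoxd8 (74704615 to 74707933). Pitx1 lies on the minus strand of chromosome 13 (55825051 to 55836192) and Tbx4 on the plus strand of chromosome 11 (85886422 to 85916097). Some members share sequence with other genes, and reads there cannot be assigned with certainty. Hoxc5 overlaps all 3 Hoxc members on the same strand and shares 166 exonic bases with Hoxc10. Hoxa11os runs antisense over 800 exonic bases of Hoxa11, and Gm28760 and Gm47071 share 108 and 165 exonic bases with Pitx1. Gm28760 had no UMI in any lineage and Gm47071 had 8 in mesenchymal cells of each library.

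Promoter sequences are shown for Hoxd8, Hoxd9, Hoxa10 and Tbx4 because these genes stand for the patterns described below. Hoxd8 and Hoxd9 were highest in endothelial cells, Hoxa10 was carried by mesenchymal and mural cells, and Tbx4 was near 0 outside mesenchymal cells. Each is the 250 bases before the RefSeq start on GRCm38.p6, 5′ to 3′ on the gene's strand, in lower case, with matches to a searched motif in capitals. They lie at chr2:74704365-74704614 (Hoxd8, plus strand), chr2:74697513-74697762 (Hoxd9, plus strand), chr6:52240855-52241104 (Hoxa10, minus strand) and chr11:85896515-85896764 (Tbx4, plus strand, before a start inside the gene's GENCODE span).
Hoxd8: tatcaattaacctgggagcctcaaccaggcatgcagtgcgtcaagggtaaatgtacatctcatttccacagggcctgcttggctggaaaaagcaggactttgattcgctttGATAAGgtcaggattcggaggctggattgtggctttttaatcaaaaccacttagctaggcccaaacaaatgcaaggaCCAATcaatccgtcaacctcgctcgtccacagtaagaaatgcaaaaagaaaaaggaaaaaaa
Hoxd9: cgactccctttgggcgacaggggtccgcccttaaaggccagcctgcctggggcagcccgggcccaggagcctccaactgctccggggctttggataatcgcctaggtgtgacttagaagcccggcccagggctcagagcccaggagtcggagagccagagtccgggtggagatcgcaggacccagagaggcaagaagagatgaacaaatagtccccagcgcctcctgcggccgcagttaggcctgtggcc
Hoxa10: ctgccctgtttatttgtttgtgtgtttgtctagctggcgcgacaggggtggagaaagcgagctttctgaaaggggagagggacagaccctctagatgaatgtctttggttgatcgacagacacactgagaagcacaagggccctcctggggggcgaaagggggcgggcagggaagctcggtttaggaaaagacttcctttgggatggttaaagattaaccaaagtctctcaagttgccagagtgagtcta
Tbx4: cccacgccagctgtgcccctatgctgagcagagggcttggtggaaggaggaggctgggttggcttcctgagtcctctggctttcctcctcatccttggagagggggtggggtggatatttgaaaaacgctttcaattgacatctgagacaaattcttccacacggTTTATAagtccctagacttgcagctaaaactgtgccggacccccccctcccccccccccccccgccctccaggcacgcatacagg
The motifs searched on both strands were the TATA box with the letters TATAAA, the CCAAT box with its own 5 letters, the site of GATA factors written GATAAG, the homeodomain core written TAATTA, the Meis site written TGACAG and the joint site of Hox and Pbx written TGATTNAT. Hoxd8 held 1 GATAAG, which 6.55% of 32851 promoter windows of this length hold, and 1 CCAAT, which 33.9% hold. Tbx4 held 1 TATA box on the other strand (12.4% of windows). No match of any of these motifs lay in the windows of Hoxd9 and Hoxa10 that are printed here, while another RefSeq start of Hoxa10, with its window at chr6:52234940-52235189, held 1 TATA box and 1 CCAAT, both on the other strand. The Hoxd9 window was 65.2% G and C and the Hoxd8 window 44.4%, against a median of 52.4% over all windows. The motifs were chosen with the sequences in view, and the matches describe the letters only.

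The 10 genes together were highest in mesenchymal cells, lower in mural cells, lower again in endothelial cells and lowest in blood cells, in both libraries. Their summed level in control cells was 429 CPM (95% interval 421 to 438) in mesenchymal, 214 (189 to 240) in mural, 138 (110 to 169) in endothelial and 29.3 (21.8 to 38.7) in blood cells. In Piezo1 fl/fl cells the same levels were 371 (364 to 379), 216 (194 to 240), 131 (103 to 164) and 29.4 (23.3 to 36.6). No intervals of neighbouring lineages in this order overlapped within a library. Hoxc10 gave 28.7% and 27.1% of these UMIs in mesenchymal cells, so the sum follows it more than any other member. The UMIs are tags of the 3′ end and are not divided by length, so levels are compared between cells and not between genes.

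**Figure D1:**
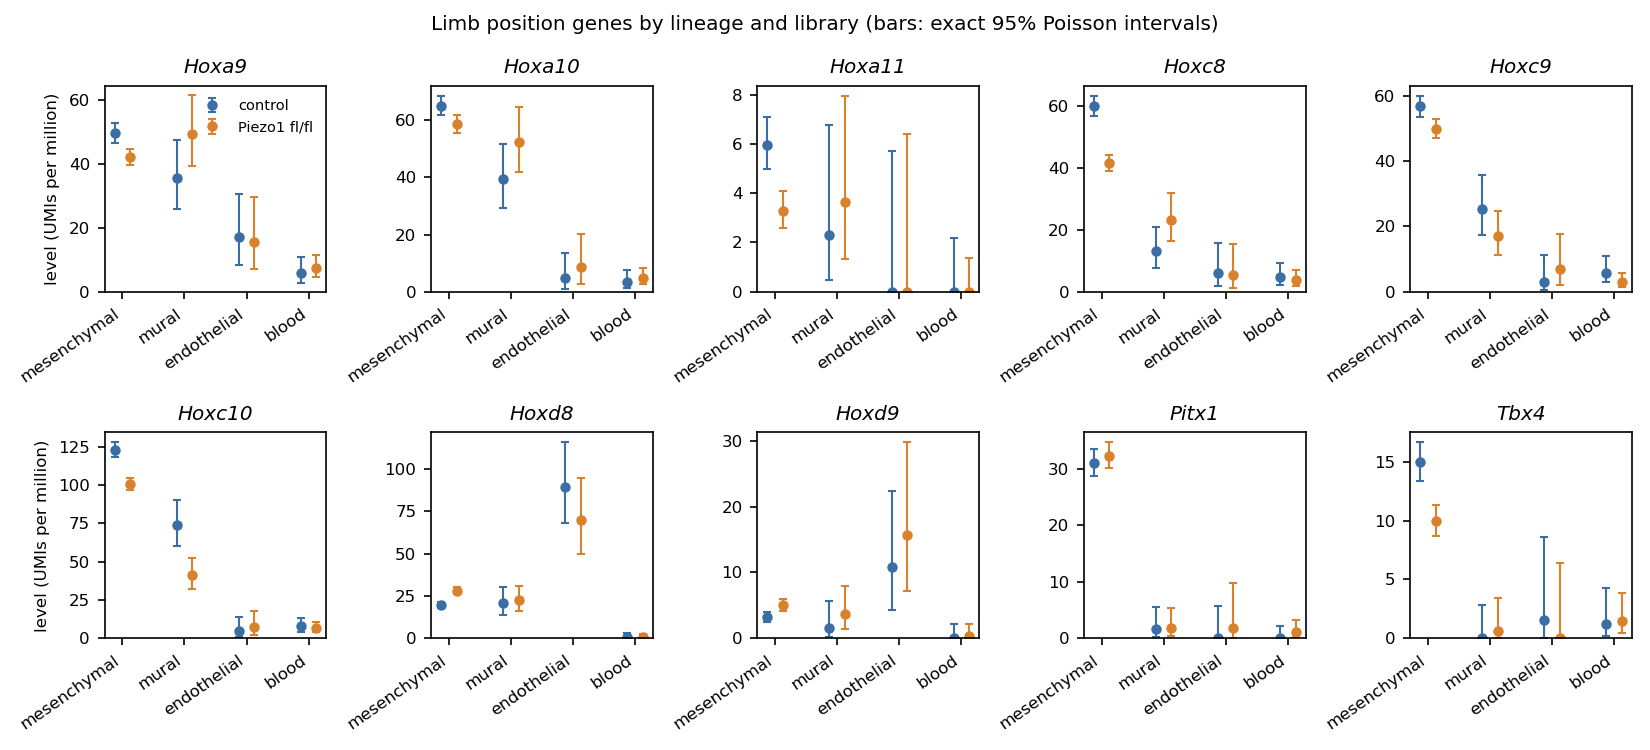
Level of each of the 10 genes (CPM, vertical axis of its own in each panel) in mesenchymal, mural, endothelial and blood cells of the control and Piezo1 fl/fl libraries, with exact 95% Poisson intervals as bars. Pitx1 and Tbx4 are high in mesenchymal cells only, Hoxa9 and Hoxa10 also in mural cells, and Hoxd8 and Hoxd9 are highest in endothelial cells.

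Against blood cells, the 10 genes were 14.6 times higher in control mesenchymal cells (interval 11.1 to 19.7) and 12.6 times higher in Piezo1 fl/fl mesenchymal cells (10.1 to 15.97). All 10 passed the 2-fold threshold in both libraries, where 25.4% and 24.6% of all genes tested did, and 0 were 2-fold lower, where 20.2% and 21.2% of all genes were. For Hoxd9 in the control, with 0 blood UMIs, the call rests on its 69 mesenchymal UMIs, and the limit of 3 counts allows only a bound of 1.81-fold. The 8 mesenchymal naming markers, such as Col1a1 and Dcn, showed ratios of 17.6 and 18.7 over the same cells. These markers gave the clusters their lineage, so high ratios follow from the naming. In the Piezo1 fl/fl library their interval, 18.4 to 19.1, lay above that of the 10 genes. The share of blood cells with a UMI of any member was 7.83% in the control library, at a median of 3678.5 UMIs per cell, against 79.0% of mesenchymal cells at 5168. After every cell was thinned to 2500 UMIs, with 95 blood and 283 mesenchymal cells too shallow to enter, the shares were 5.65% and 60.5%. The control ratio was 9.52 when doublets were kept and 22.6 when each cell took its lineage from its own markers. The blood clusters of the Piezo1 fl/fl library differed, with summed levels of 26.0 (291 cells), 16.3 (144 cells) and 65.3 CPM (87 cells, led by Ngp). The last of these held Hoxa9 at 19.6 and Hoxa10 at 15.2, against Hoxa9 at 5.35 and 4.35 and Hoxa10 at 2.29 and 3.26 in the others. These values rest on only 20 Hoxa9 and 13 Hoxa10 UMIs over all blood cells of that library, and no interval was computed for single clusters. The pooled blood values serve below as a level of comparison, and the origin of their UMIs was not tested.

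Mural cells carried the Hoxa and Hoxc members but hardly Pitx1 and Tbx4. The summed level was 2.01 times higher in mesenchymal than in mural cells in the control (1.78 to 2.27) and 1.72 times in the Piezo1 fl/fl library (1.55 to 1.92), where the 8 mesenchymal markers were 29.4 and 31.0 times higher. Of the 10 genes, 5 and 4 were at least 2-fold higher in mesenchymal cells, against a background of 24.1% and 25.2% of all genes, and 0 were 2-fold lower, against 16% and 14.7%. The control call of Hoxa11 rests on 3 mural UMIs, and the interval of its ratio, 2.58 (0.863 to 12.7), included 1. The median log2 ratio of the 10 was 0.94 and 0.58, beside 0.10 and 0.14 over all genes. With the Chad-led cluster left out, the control count of 5 became 3.

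Hoxa10, a gene of the proximal limb segment, stood at 65.1 CPM in control mesenchymal cells and 39.3 in control mural cells, and at 58.5 and 52.5 in the Piezo1 fl/fl library. Its mesenchymal excess over mural cells was 1.66 (1.25 to 2.24) in the control, while in the Piezo1 fl/fl library the interval of 1.12 (0.897 to 1.40) included 1. Hoxa9 gave 49.6 against 35.5 in the control and 42.1 against 49.4 in the Piezo1 fl/fl library. The Hoxa9 ratio was 1.40 (1.04 to 1.92) in the control, while that of the Piezo1 fl/fl library, 0.852 (0.679 to 1.08), included 1. Hoxd8 was level between the lineages, at 19.4 and 20.8 in the control and at 28.0 and 22.6 in the Piezo1 fl/fl library. Hoxa11, the gene of the middle limb segment, was low everywhere, with 3 and 6 UMIs in mural cells, and Hoxd9 had 2 and 6.

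The Hoxc members were lower in mural than in mesenchymal cells in both libraries. Hoxc10, the most hindlimb-restricted of the 3, stood at 123 in mesenchymal and 74.0 in mural control cells, and at 101 and 41.5 in Piezo1 fl/fl cells. Hoxc9 gave 56.9 and 25.4 in the control and 50.01 and 17.1 in the Piezo1 fl/fl library. Hoxc8 gave 60.045 and 13.1, then 41.5 and 23.2, so that its mesenchymal excess was 4.58 (2.85 to 7.89) in the control and 1.79 (1.29 to 2.54) in the Piezo1 fl/fl library, which turned below 1, to 0.912, when only cells under 10% mitochondrial UMIs were kept. These mural levels were above those in blood cells for every Hoxc member in both libraries, without overlap of the intervals except for Hoxc8 in the control.

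Pitx1 and Tbx4, the hindlimb factors, set mural cells apart most. Pitx1 gave 31.0 CPM in control mesenchymal cells and 1.54 (2 UMIs) in mural cells, and 32.3 and 1.83 (3 UMIs) in the Piezo1 fl/fl library. Its mesenchymal excess was 20.1 (5.55 to 166) and 17.6 (6.01 to 85.7). Tbx4 gave 15.0 in control mesenchymal cells and 0 UMIs in mural cells, which is at least 6.48-fold higher against a limit of 3 counts. In the Piezo1 fl/fl library it gave 9.97 and 1 mural UMI, a ratio of 16.3 (2.91 to 648). The ratios of the Hoxa and Hoxc members lay between 0.852 and 4.58, and with 0 to 3 mural UMIs the lower limits for Pitx1 and Tbx4 reach the interval of the control Hoxc8 ratio.

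Mural cells with a UMI of the Hoxa or Hoxc members had mural markers close to those of the other mural cells and mesenchymal markers somewhat above them. In the control, 147 mural cells had such a UMI and 147 had none. The summed mural markers stood at 37987 and 37851 CPM in them, and the summed mesenchymal markers at 3613 and 3183. In the Piezo1 fl/fl library 178 and 185 mural cells gave 38528 and 38966 for the mural markers, and 3079 and 2052 for the mesenchymal markers. The cells with a UMI were deeper, at medians of 4289 against 3451 and 4584 against 3237 UMIs, and the part of depth and of the mesenchymal markers in these UMIs was not tested. Thinned to equal depth, Hoxa10 was found in 10.9% of mural and 13.9% of mesenchymal control cells, and in 12.1% and 12.3% in the Piezo1 fl/fl library, against 1.33% and 0.682% of blood cells.

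**Figure D2:**
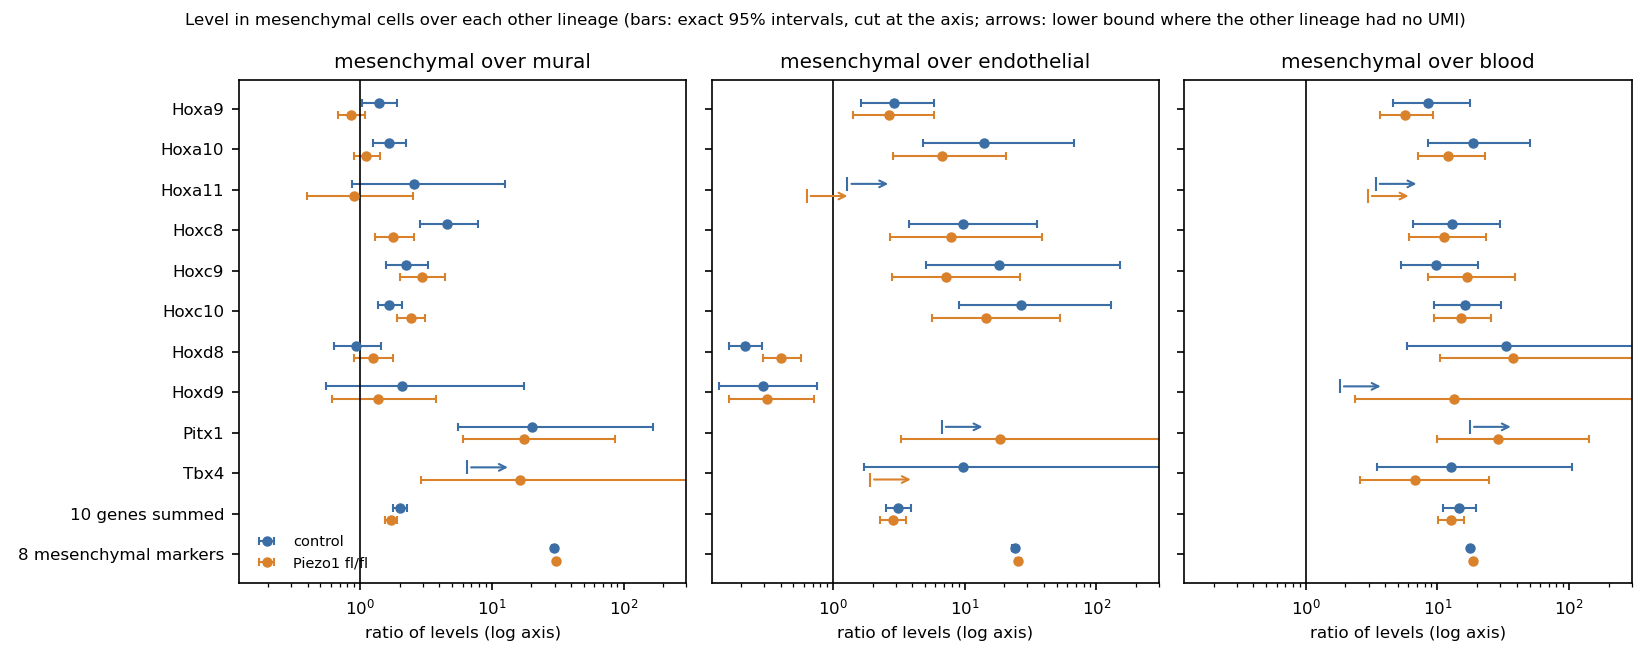
Ratio of the level in mesenchymal cells over that in mural, endothelial and blood cells (log axis) for the 10 genes, their sum and the 8 summed mesenchymal markers, in both libraries, with exact 95% intervals as bars and arrows where the other lineage had no UMI and only a bound can be given. The sum of the 10 genes lies at 2.01 and 1.72 against mural cells, where the markers lie at 29.4 and 31.0. Against blood cells the sum lies at 14.6 and 12.6 and the markers at 17.6 and 18.7. Hoxd8 and Hoxd9 lie below 1 against endothelial cells.

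Endothelial cells showed another pattern, in which Hoxd8 and Hoxd9 were higher than in mesenchymal cells and the other members were low. Of the 10 genes, 8 were at least 2-fold higher in mesenchymal than in endothelial cells in each library, where 17.8% and 15.7% of all genes were. The other 2, Hoxd8 and Hoxd9, were at least 2-fold lower in both libraries, where 21.5% and 22% of all genes were. For Hoxa11, with 0 endothelial UMIs in both libraries, the call rests on the mesenchymal count, and the limit of 3 counts allows only a bound of 1.29-fold in the control and none in the Piezo1 fl/fl library. Tbx4 in the Piezo1 fl/fl library also had 0 endothelial UMIs, with a bound of 1.91-fold, and with 1 UMI in place of 0.5 added to both counts the Piezo1 fl/fl count was 7.

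Hoxd8 stood at 89.6 CPM (68.1 to 116) in control endothelial cells and 19.4 (17.6 to 21.3) in mesenchymal cells. In the Piezo1 fl/fl library it stood at 69.7 (49.8 to 94.9) and 28.0 (26.0 to 30.3). It was thus 4.63 times higher in endothelial cells of the control (3.45 to 6.10) and 2.48 times higher in those of the Piezo1 fl/fl library (1.76 to 3.42). Its neighbour Hoxd9 gave 10.8 and 15.7 in endothelial cells on only 7 and 9 UMIs, against 3.19 and 4.98 in mesenchymal cells. The endothelial excess of Hoxd9 was 3.39 (1.31 to 7.37) and 3.15 (1.40 to 6.18).

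Hoxd8 was found in 23.6% of control endothelial cells at a median depth of 3022 UMIs, in 9.20% of mesenchymal cells at 5168 and in 0.253% of blood cells at 3678.5. Thinned to 2500 UMIs, the shares were 17.6%, 4.19% and 0.332% in the control and 19.1%, 6.69% and 0.227% in the Piezo1 fl/fl library. The 41 control endothelial cells with a Hoxd8 UMI had a summed level of 8505 CPM for the endothelial markers, against 9021 in the 133 cells without one. Their mesenchymal markers were lower, at 2667 against 4933 CPM, and in the Piezo1 fl/fl library at 1658 against 3698. The cells with a Hoxd8 UMI were deeper, at medians of 4010 against 2792 and 4088.5 against 3016 UMIs. The endothelial cells of the Piezo1 fl/fl library had mural markers at 6164 CPM against 2871 in the control, and the part of this in any result was not tested.

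The other members had few endothelial UMIs. Hoxc10, the member with the most UMIs in mesenchymal cells, had 3 and 4 in endothelial cells, Hoxc8 had 4 and 3, Hoxc9 had 2 and 4, and Hoxa10 had 3 and 5. Pitx1 had 0 and 1, and Tbx4 had 1 and 0. Their endothelial levels met the intervals of the blood level. Hoxa9 had more, with 11 and 9 UMIs or 17.0 (8.49 to 30.4) and 15.7 CPM (7.17 to 29.8). These intervals also met those of blood cells, 2.81 to 10.8 and 4.54 to 11.5. The mesenchymal level of Hoxa9 exceeded the endothelial one 2.91 times (1.62 to 5.86) and 2.68 times (1.41 to 5.89).

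The remaining Hox genes, 31 of 39 in the list used, were read beside the members. In mesenchymal cells 24 and 21 of the 39 genes had at least 20 UMIs, and the 8 Hox members gave 74.0% and 76.5% of all Hox UMIs. In endothelial cells they gave only 27.8% and 27.9%. The Hoxc cluster as a whole stood at 325 and 252 CPM in mesenchymal, 172 and 156 in mural, 21.6 and 27.9 in endothelial and 24.6 and 17.9 in blood cells. The Hoxb cluster ran the other way, at 16.5 and 12.2 in mesenchymal, 20.04 and 24.4 in mural and 215 and 207 in endothelial cells. Of the other Hox genes with enough UMIs to be tested, 13 of 20 in the control and 13 of 19 in the Piezo1 fl/fl library were at least 2-fold higher in endothelial cells. Of all genes, 21.5% and 22% were. In mesenchymal cells 4 and 3 were 2-fold higher, near the share of all genes, 17.8% and 15.7%. The median log2 ratio of these other Hox genes, mesenchymal over endothelial cells, was -2.22 and -2.27, beside -0.24 and -0.30 over all genes.

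Hoxb7 showed the endothelial pattern clearly among genes of the thoracic level. It gave 57.2 and 57.5 CPM in endothelial cells and 1.16 and 1.35 in mesenchymal cells, an endothelial excess of 49.5 (29.0 to 85.8) and 42.5 (25.3 to 71.4). Hoxa5 gave 49.5 and 52.3 in endothelial cells against 10.0 and 8.57, Hoxb4 gave 38.6 and 29.6 against 7.86 and 5.74, and Hoxb6 gave 34.0 and 34.8 against 3.14 and 2.32. Hoxa7 was high in both vascular lineages, at 35.5 and 29.6 in endothelial and 27.8 and 34.2 in mural cells, against 8.32 and 8.997 in mesenchymal cells. Hoxb9, of the same paralog number as the members Hoxa9, Hoxc9 and Hoxd9, gave 24.7 and 31.4 in endothelial cells against 2.63 and 1.56 in mesenchymal cells. Genes of the same paralog number thus fell on both sides of the comparison.

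Among the non-member Hoxc genes, Hoxc6 gave 47.8 and 34.3 in mesenchymal, 33.1 and 52.5 in mural, 3.09 and 1.74 in endothelial and 4.69 and 2.23 in blood cells. Like the Hoxc members it was low in endothelial and blood cells. Unlike them, it was higher in mural than in mesenchymal cells of the Piezo1 fl/fl library. Hoxc4 gave 17.7 and 12.1 in mesenchymal cells, Hoxc5 11.9 and 7.22, and Hoxc11, a gene of the most posterior limb levels, 6.75 and 5.62. The genes with the highest numbers were rare. Hoxd13 had 30 and 22 mesenchymal UMIs and Hoxa13 20 and 3, while Hoxb13, Hoxc12 and Hoxd12 had none in either library, which allows at most 0.139 and 0.127 CPM. Hoxa2 and Hoxa3, genes of the head and neck level, had 65 and 55 and 150 and 136 mesenchymal UMIs. The remaining Hox genes with at least 20 mesenchymal UMIs in a library were Hoxb5 with 21 and 8 UMIs and Hoxd10 with 23 and 15. Of the noncoding RNAs of the clusters, Hotairm1 gave 2.45 and 2.79 CPM in mesenchymal, 20.04 and 10.98 in mural and 26.3 and 15.7 in endothelial cells, Hoxd3os1, which overlaps Hoxd8 on the other strand, had 40 and 48 mesenchymal UMIs, and Hotair had 17 and 22.

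**Figure D3:**
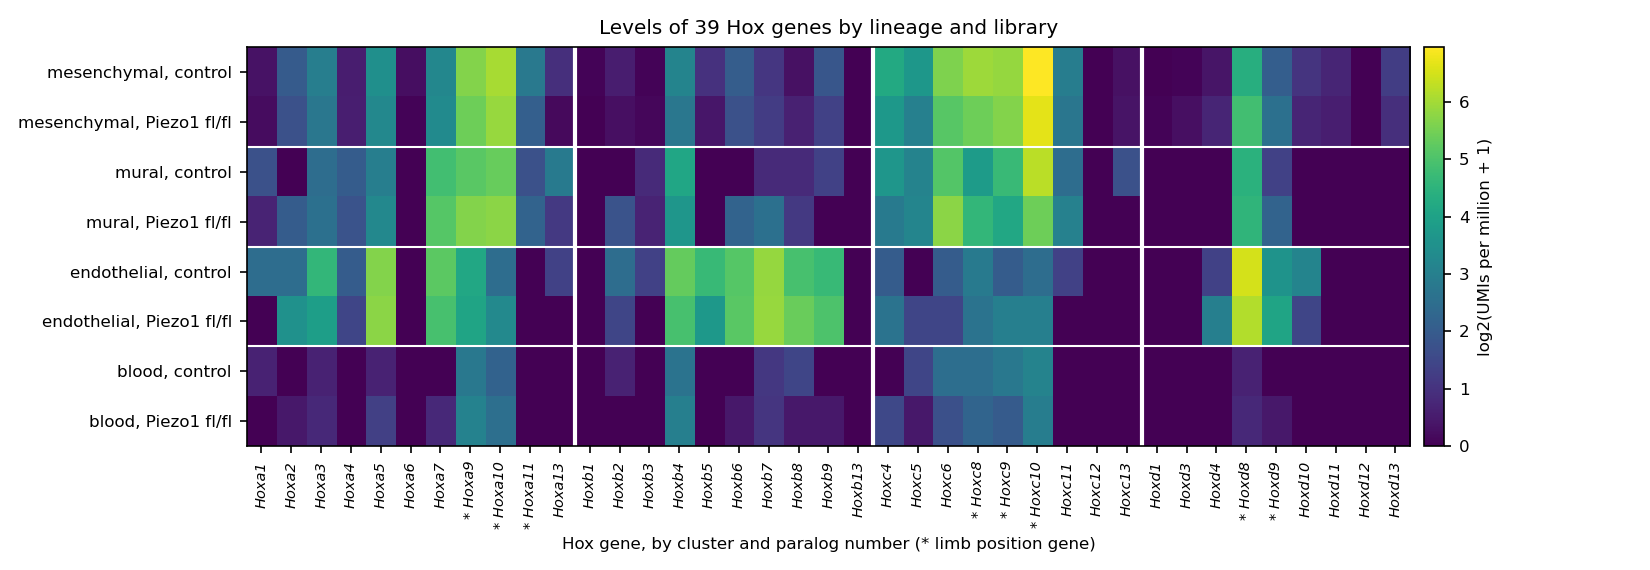
Level of 39 Hox genes, as log2(CPM + 1) in colour, with lineage and library in rows and genes in columns by cluster and paralog number, the members marked by a star. Mesenchymal and mural rows are bright over Hoxa9 to Hoxa10 and Hoxc6 to Hoxc10, endothelial rows over Hoxa5, Hoxa7, Hoxb4 to Hoxb9 and Hoxd8, and blood rows are dark throughout.

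Within mesenchymal cells the members varied with cell type. Types were named from marker genes, and a cluster for which another class had a strong claim too was called by its leading gene. The Chad-led clusters (795 and 877 cells) were led by Chad, which encodes the matrix protein chondroadherin. They held the highest summed level in both libraries, 683 (660 to 708) in the control and 525 (503 to 548) in the Piezo1 fl/fl library. In the control the tendon-like cells followed at 450 (413 to 488), and SSPC-2-like cells (named for a class of skeletal stem and progenitor cells, with Mmp13 and Ibsp among their leading genes, 368), fibroblast-like cells (358) and lining-like cells (347) had overlapping intervals. Mature osteoblast-like cells stood at 220 (183 to 263), and the 33 perineurial-like cells, of the nerve sheath, at 111 (66.5 to 173). In the Piezo1 fl/fl library lining-like cells stood at 407 (369 to 448), tendon-like cells at 377 (350 to 405) and the 27 cells of an Ibsp-led cluster with cartilage genes at 353 (283 to 435), all with overlapping intervals, followed by fibroblast-like (333) and SSPC-2-like cells (320). The 10 leading genes of the Piezo1 fl/fl SSPC-2-like cluster held 3 SSPC-2 markers and 3 of mature osteoblasts (Ibsp, Spp1 and Bglap).

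Hoxc10 was highest in Chad-led cells, at 214 (201 to 228) and 153 (141 to 166), with tendon-like cells at 128 and 102 and SSPC-2-like cells at 121 and 103. The 27 Ibsp-led cells of the Piezo1 fl/fl library stood at 142 (98.9 to 198), which overlaps Chad-led cells. Fibroblast-like cells were lower, at 86.7 and 84.6. Among the types, Hoxa10 was highest in Chad-led cells, at 109 and 81.8, and stood at 45.0 and 36.4 in SSPC-2-like and 46.4 and 46.6 in tendon-like cells. In the Piezo1 fl/fl library lining-like cells, at 71.2 (56.0 to 89.2), overlapped Chad-led cells (73.2 to 91.1). A fibroblast-like cluster there (229 cells, led by Gdf10) had higher values than Chad-led cells, at 108 for Hoxa10 and 61.0 for Hoxa9. No interval was computed for single clusters, and the Hoxa9 value lay close to the Chad-led interval, 46.0 to 60.5. The other fibroblast-like clusters of that library stood at 52.0, 43.4 and 70.0 for Hoxa10. Hoxa9 gave 77.1 and 52.9 in Chad-led cells and 28.0 and 28.7 in tendon-like cells. Hoxc9 ranged from 34.9 to 84.5 in the control and from 32.5 to 71.2 in the Piezo1 fl/fl library, again highest in Chad-led cells. Hoxc8 reached 103 (86.2 to 123) in tendon-like and 81.2 (73.2 to 89.9) in Chad-led control cells, with 43.0 and 75.1 in the Piezo1 fl/fl library, so the order of these 2 types turned between libraries.

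Hoxd8 and Hoxd9 had another order. Among types with over 100 cells Chad-led cells had the lowest Hoxd8 value in both libraries, at 10.9 (8.06 to 14.3) and 22.2 (17.9 to 27.3), the latter overlapping SSPC-2-like cells at 25.9. Some smaller types had lower values on 1 to 3 UMIs, with intervals overlapping Chad-led cells. They were mature osteoblast-like (3.61) and perineurial-like control cells (5.82) and Ibsp-led Piezo1 fl/fl cells (12.2). Tendon-like and lining-like cells were high, at 28.8 and 39.9 in the control and 44.5 and 32.3 in the Piezo1 fl/fl library. The control lining-like value rests on 19 UMIs in 55 cells. Hoxd9 was likewise lowest in Chad-led and SSPC-2-like cells among the types with over 100 cells, at 1.74 and 0.948 in the control and 1.48 and 3.52 in the Piezo1 fl/fl library, on 5 to 12 UMIs each. Hoxa11 stood at 11.5 (8.62 to 15.1) in Chad-led control cells and 6.13 in fibroblast-like control cells, and at 3.21 and 2.93 in the Piezo1 fl/fl library. In lining-like cells, led by Prg4, the gene of the joint lubricant lubricin, it had 14 UMIs in 124 Piezo1 fl/fl cells and 0 in 55 control cells.

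Pitx1 gave 70.8 (63.3 to 78.9) in Chad-led control cells, then 39.9, 29.97 and 28.0 in lining-like, SSPC-2-like and tendon-like cells with overlapping intervals, and 13.5 (11.3 to 16.1) in fibroblast-like cells. In the Piezo1 fl/fl library the order was led by lining-like cells at 93.9 (76.4 to 114), the small Ibsp-led cluster stood at 64.9 (37.1 to 105) and Chad-led cells at 46.7 (40.3 to 53.9), and fibroblast-like cells were lowest at 21.8 (19.4 to 24.5). Tbx4 gave 23.2 in Chad-led, 21.0 in lining-like and 17.4 in SSPC-2-like control cells, all overlapping, and 10.9 in fibroblast-like cells. In the Piezo1 fl/fl library the same types stood at 17.5, 14.2, 13.5 and 7.25. Tendon-like cells gave 9.60 (4.96 to 16.8) in the control and 5.12 (2.45 to 9.41) in the Piezo1 fl/fl library, overlapping fibroblast-like cells. For both hindlimb factors the fibroblast-like cells, the largest type with 1634 and 2114 cells, were thus below Chad-led cells in both libraries.

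**Figure D4:**
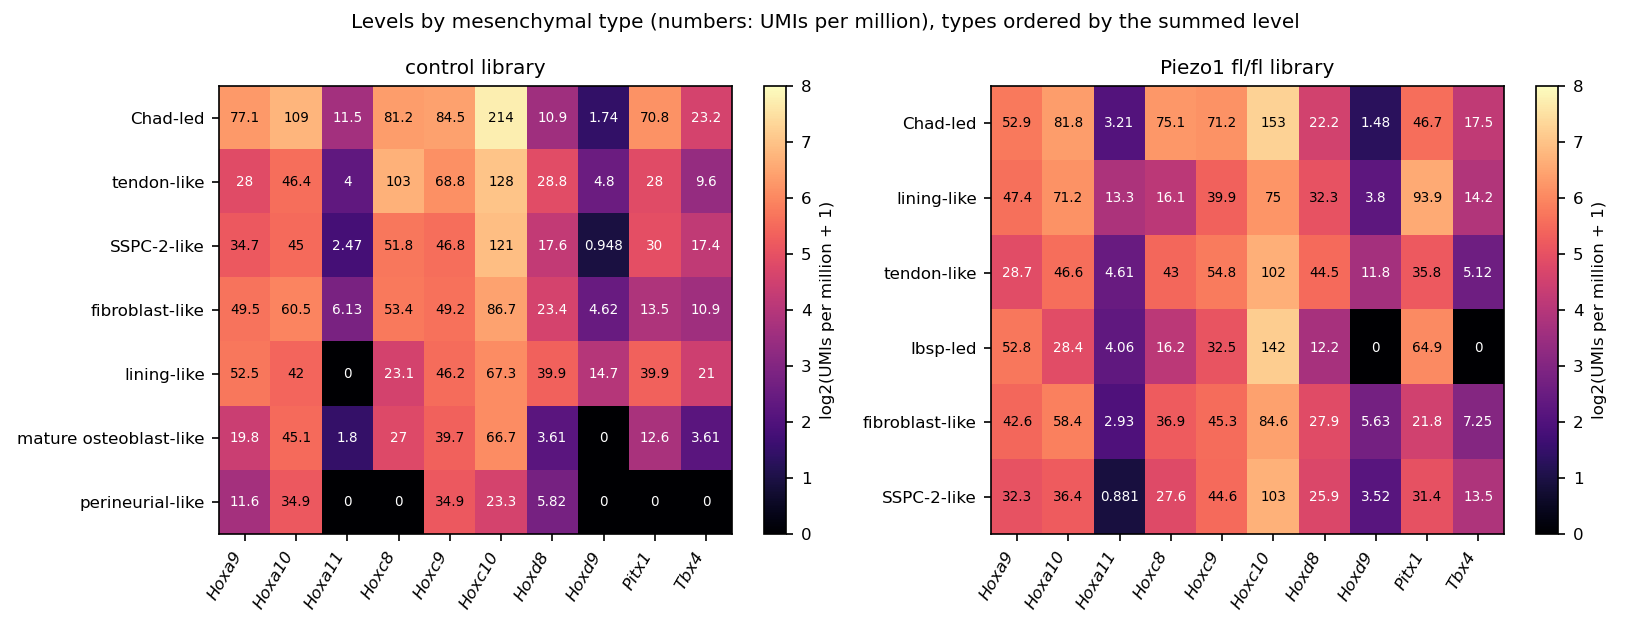
Level of the 10 genes in each mesenchymal type of the control (left) and Piezo1 fl/fl (right) library, with CPM printed in each field, colour as log2(CPM + 1) and types ordered by the summed level. Chad-led cells are at the top in both libraries, and Pitx1 is highest in Chad-led cells of the control (70.8) and in lining-like cells of the Piezo1 fl/fl library (93.9).

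Single cells held few of the members at a time. Thinned to 2500 UMIs, 39.5% of control and 43.7% of Piezo1 fl/fl mesenchymal cells had no member UMI, 37.4% and 38.4% had 1 member, and 0.154% and 0.164% had 5, the most seen. Hoxc10 was found in 25.1% and 20.6% of thinned mesenchymal cells, Hoxa10 in 13.9% and 12.3%, Pitx1 in 7.02% and 7.04% and Tbx4 in 3.54% and 2.13%. Pitx1 and Tbx4 were together in 13 control cells where the product of their shares gives 8.07, and in 11 Piezo1 fl/fl cells against 5.49. The interval of the shared control cells included the product, while for Piezo1 fl/fl cells its lower end met the product to 3 digits, at 0.150% of cells. Hoxa10 and Hoxc10 were together in 127 cells against 113 and in 88 against 92.8, and Hoxa11 and Hoxc10 in 12 against 12.8 and 4 against 5.77, intervals that included the product in each case. Of 45 pairs, 8 lay above, 2 below and 35 across the product in the control, and 7, 0 and 38 in the Piezo1 fl/fl library. Differences of level between types enter these counts.

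Between the libraries, the summed level in mesenchymal cells was lower in Piezo1 fl/fl than in control cells, and the members did not move together. The ratio of Piezo1 fl/fl over control was 0.865 (0.840 to 0.891), with a median log2 ratio of -0.21 over the 10 genes and -0.03 over all genes tested. At least 1.5-fold, 3 of the 10 genes differed, where 19.2% of all genes did. They were Hoxa11, with 5.96 in control and 3.29 in Piezo1 fl/fl cells and a ratio of 0.553 (0.412 to 0.738), Tbx4, with 15.0 and 9.97 and a ratio of 0.666 (0.560 to 0.790), and Hoxd9, with 3.19 and 4.98 and a ratio of 1.56 (1.15 to 2.13). Tbx4 is just inside the threshold. With 1 library per genotype, genotype cannot be told apart from the library, its mice and its makeup of cell types.

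Of the other members, Hoxc8 had a ratio of 0.691 (0.635 to 0.751), Hoxc10 of 0.817 (0.773 to 0.863), Hoxa9 of 0.849 (0.778 to 0.926), Hoxc9 of 0.880 (0.811 to 0.953) and Hoxa10 of 0.899 (0.834 to 0.969), which became 1.01 with the Chad-led and Ibsp-led clusters left out. Hoxd8 had a ratio of 1.45 (1.28 to 1.64), and the interval of Pitx1, at 1.04 (0.937 to 1.16), included 1. Over all mesenchymal cells the Hoxd members were thus the higher ones in the Piezo1 fl/fl library and the Hoxa and Hoxc members the lower ones. The Hoxd8 ratio lay above 1 in Chad-led (2.05), SSPC-2-like (1.47), tendon-like (1.55) and fibroblast-like cells (1.19), and at 0.808 (0.448 to 1.499) in lining-like cells. Hoxd9 was higher in SSPC-2-like cells, at 3.72 (1.22 to 13.5). Its intervals included 1 in Chad-led (0.854), lining-like (0.258), fibroblast-like (1.22) and tendon-like cells (2.45). In lining-like cells Hoxa10, at 1.69 (1.02 to 2.93), and Hoxa11, with 14 UMIs against 0, were higher in the Piezo1 fl/fl library. With both libraries weighted to the control's makeup of types, the sum gave 0.861 and 1 of the 10 genes passed 1.5-fold, as was the case with 500 to 6000 genes per cell. In mural cells 2 of 6 members tested passed 1.5-fold (19.7% of all genes), in endothelial cells 0 of 3 (28.8%) and in blood cells 1 of 5 (26.8%), and only the mural interval of Hoxc10, at 0.560 (0.405 to 0.773), excluded 1 in these lineages.

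**Figure D5:**
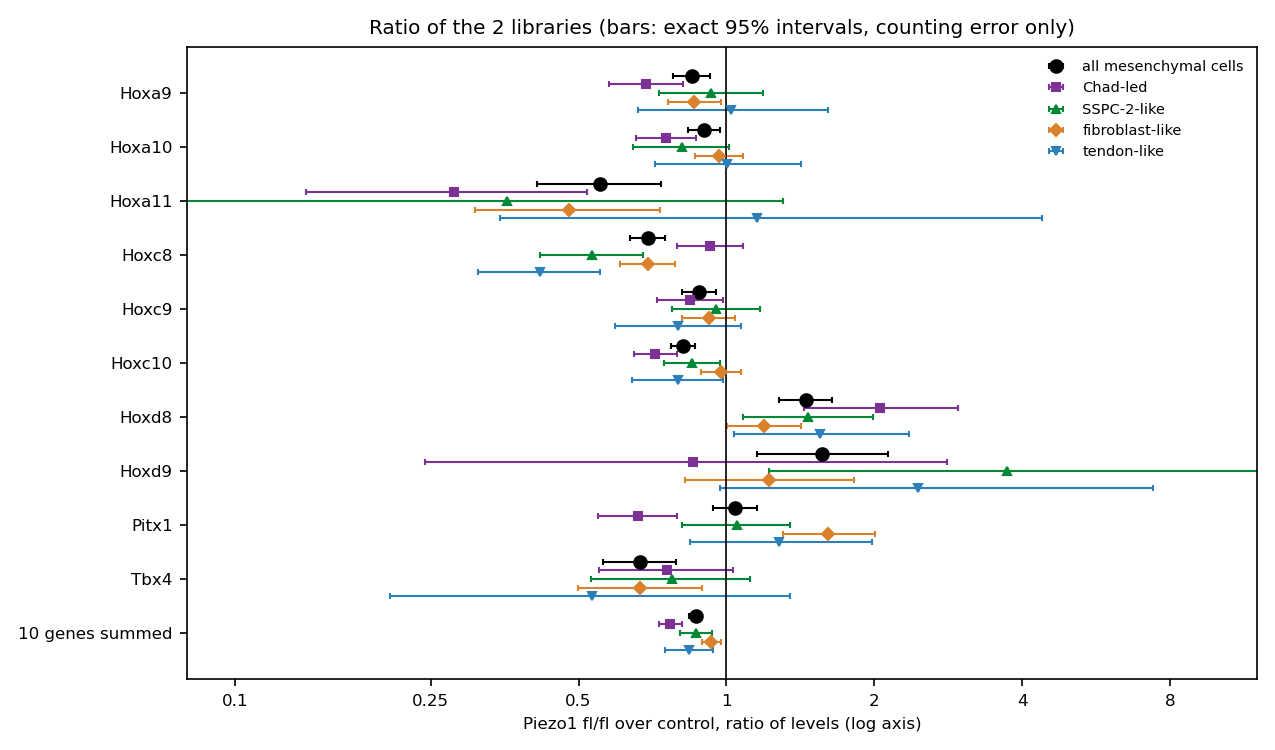
Ratio of the level in the Piezo1 fl/fl library over the control library (log axis) for the 10 genes and their sum, over all mesenchymal cells and in 4 types, with exact 95% intervals for counting error. Hoxd8 lies to the right of 1 in every group drawn, Hoxa11 to the left in all but tendon-like cells, and Pitx1 to the left in Chad-led and to the right in fibroblast-like cells.

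Other limb transcription factors formed the surrounding of these genes. Of 17 genes of a limb list, 16 could be tested, and 11 and 9 of them were at least 2-fold higher in mesenchymal than in mural cells (24.1% and 25.2% of all genes), with 3 and 3 lower (16% and 14.7%). Against endothelial cells 13 and 11 were higher (17.8% and 15.7% of all genes) and 1 and 2 lower (21.5% and 22%), and against blood cells 16 and 16 were higher (25.4% and 24.6%). Tbx5, the forelimb counterpart of Tbx4, was found in these hindlimb bones, with 243 UMIs (11.2 CPM) in control and 489 UMIs (20.7 CPM) in Piezo1 fl/fl mesenchymal cells, 0 and 2 in endothelial cells and 0 and 5 in blood cells. Shox2, a homeobox gene of the proximal limb, gave 205 and 125 CPM in mesenchymal cells, 73.2 and 69.5 in mural cells and 21.6 and 31.4 in endothelial cells. Lmx1b, which specifies the dorsal limb, gave 11.8 and 7.65, and En1, a gene of the ventral limb ectoderm and of dermal fibroblasts, 9.38 and 14.3, with 0 UMIs of either in endothelial cells. Tbx15 gave 116 and 131, Tbx18 42.2 and 47.7, Gli3 35.8 and 37.0, Twist1 187 and 133, Prrx2 51.6 and 52.4, Alx4 9.85 and 6.08, Hand2 1.90 and 0.465 and Isl1, a hindlimb gene upstream of Tbx4 in the embryo, 3.33 and 0.971.

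Tbx2, Tbx3 and Msx1 were the limb list genes that mural cells carried at higher levels. Tbx3 gave 193 and 234 CPM in mural cells against 39.2 and 15.9 in mesenchymal cells, Tbx2 212 and 229 against 24.6 and 12.4, and Msx1 145 and 115 against 45.8 and 30.8. In mesenchymal cells of the Piezo1 fl/fl library, 2 of 16 limb genes were at least 1.5-fold higher than in the control, Tbx5 and En1, and 7 were lower, among them Tbx3 with a ratio of 0.405 (0.357 to 0.457), Shox2 with 0.609 (0.582 to 0.639), Lmx1b with 0.646 (0.531 to 0.785) and Isl1 with 0.292 (0.174 to 0.472). Of 23 other Hox genes tested, 2 were higher and 7 lower. Over all genes, 19.2% passed 1.5-fold in either direction.

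Among the DNA-binding partners of Hox proteins, Meis1 and Meis2 were higher in mesenchymal than in endothelial cells. Meis2 gave 50.7 and 43.9 CPM in mesenchymal and 27.0 and 28.7 in mural cells, and 7.73 and 8.71 in endothelial cells, and Meis1 22.1 and 16.9 in mesenchymal cells against 3.08 and 4.88 in mural and 3.09 and 3.48 in endothelial cells. Of 8 partner genes tested, 3 and 4 were at least 2-fold higher in mesenchymal than in endothelial cells, where 17.8% and 15.7% of all genes were. Meis3, Pbx2, Pbx3, Pknox1 and Pknox2 stood between 10.5 and 25.5 CPM in mesenchymal cells.

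The 5 genes whose level over 19 types of both libraries was most like the summed members were Rcn2, Dlg5, Copg1, Sspn and Slc37a3, with Pearson correlations of 0.9497, 0.928, 0.923, 0.906 and 0.906 among 8704 genes ranked. The types share 2 libraries and were built from the same cells, so these values only describe the profiles.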

How the data were processed

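Single cells sorted for the Ai9 reporter were measured in 2 BD Rhapsody libraries. The authors deposited whole-number UMI counts per gene and cell, without normalization, with gene and barcode lists. The submitters' processing notes name fastp, UMI-tools, STAR and Seurat 4.0.3; the genome build and strand setting are not given in the sources used here. There were 6118 barcodes with 28030299 UMIs in all for the control and 7469 with 32337308 for Piezo1 fl/fl. The files hold no columns of the authors' comparisons.

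After the study's methods, barcodes were kept at 1000 to 5000 detected genes and a mitochondrial share below 25%, and genes found in at least 10 cells. Scrublet in scanpy 1.11.5 (expected rate 0.05) called 46 doublets (0.829%) and 67 (0.988%), which were removed. Each library was clustered alone in Seurat 5.3.0 (R 4.3.3; scale factor 10000, 2000 features less the genes listed here, 30 components, 20 in the graph, resolution 0.4). A cluster took the lineage with the largest mean share of its 8 markers per cell. A cluster with a second lineage at 0.5 or more was called mixed. A type name needed at least 3 detected markers, and was dropped where the 10 leading genes held more markers of another class, or where another class had 4 or more detected markers and at least 0.5 of the mean log2 fold while fewer than 4 leading genes were the type's own. The rule for mixed clusters and the last of these were chosen with the clusters in view.

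Levels are summed UMIs over the group's total, per 1000000 (CPM), with exact Poisson intervals; ratios carry exact conditional and shares exact binomial (Clopper-Pearson) intervals, each at the 95% level and covering counting error alone (scipy 1.17.1). Genes with at least 10 UMIs over both groups were tested against a fold of 2 between lineages and 1.5 between libraries, with 0.5 UMIs added to both counts. A count of 0 was read against 3 counts. The functions were tested on simulated data. Gene identifiers were matched to GENCODE vM21 (31107 of 31253), and promoters to RefSeq (6 of the 10 genes).

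Named genes were the 10 members, Hox, limb, partner and Hox-cluster noncoding genes of fixed lists with at least 20 mesenchymal UMIs, the 5 genes of most like profile among those with at least 500 UMIs (on log2 of the level + 10), genes overlapping a member, Prrx1 and Piezo1. The members and lists were chosen with earlier results of these data known. A gene covered by this naming rule is not reported here.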

Additional observations from a re-analysis of the deposited data

Results flagged for a closer look

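In 3 cases the ratio of Piezo1 fl/fl over control lay above 1 in one mesenchymal type and below 1 in another, with both intervals away from 1. Only ratios with more than 3 UMIs in each library were searched. This limit left out Hoxa11 in lining-like cells, with 14 Piezo1 fl/fl and 0 control UMIs. Its ratios were 0.279 (0.140 to 0.519) in Chad-led and 0.478 (0.309 to 0.734) in fibroblast-like cells. The difference itself was not tested, since there was 1 library per genotype. Pitx1 had a ratio of 1.61 (1.30 to 2.00) in fibroblast-like cells and 0.660 (0.549 to 0.792) in Chad-led cells, which differ 2.44 times. Its ratio of 2.35 (1.43 to 4.07) in lining-like cells differed from that in Chad-led cells 3.56 times. Hoxa10 had a ratio of 1.69 (1.02 to 2.93) in lining-like and 0.754 (0.654 to 0.868) in Chad-led cells, which differ 2.25 times. The lining-like types rest on 55 control and 124 Piezo1 fl/fl cells, and the fibroblast-like type joins 2 control and 4 Piezo1 fl/fl clusters.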

How the results depend on the processing

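No paired analysis was possible because each genotype has 1 library and no result comes from a test. The lineage and library ratios of the members and their sum, with the counts of members called, were recomputed under 13 other settings and 2 more added after seeing the data (the mixed cluster counted as mesenchymal and, for the library results only, the control's makeup of types). Type levels, shared cells, the other gene lists and the like genes were not recomputed. For the summed levels and counts, 188 values stayed within the main interval or within 1.5 times the main count and 10 did not, and for single genes 966 stayed, 22 moved out of the interval and 2 turned in sign. On the log2 scale, the control ratio of mesenchymal over endothelial cells went from 1.642 to 1.337 with no doublet removal. The ratio over blood cells went from 3.871 to 3.251 with no doublet removal and to 4.499 with the lineage of each cell from its own markers, and in the Piezo1 fl/fl library from 3.659 to 4.175 with the latter. The ratio over mural cells went from 1.007 to 0.756 in the control with unnamed clusters left out, which also took the members called from 5 to 3, and from 0.782 to 0.616 in the Piezo1 fl/fl library with mitochondrial UMIs under 10%. With unnamed clusters left out the ratio of Piezo1 fl/fl over control went from -0.209 to -0.088, and Hoxa10 turned to 0.018. The count of 3 members past 1.5-fold between libraries fell to 1 with 500 to 6000 genes per cell and to 1 with the control's makeup of types. Hoxc8 turned to -0.133 for mesenchymal over mural cells of the Piezo1 fl/fl library with mitochondrial UMIs under 10%. The cause of these shifts was not tested. Depth limits Hoxa11, Hoxd9, Pitx1 and Tbx4 outside mesenchymal cells most, at 9 UMIs or fewer in each vascular lineage.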

Other observations

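The limb genes outside the 10 members also differed between mesenchymal types. Tbx5 gave 19.8 CPM (17.0 to 22.9) in fibroblast-like control cells and 31.8 (28.8 to 34.98) in those of the Piezo1 fl/fl library, against 1.52 and 2.06 in SSPC-2-like and 5.43 and 6.43 in Chad-led cells. Pitx1 and Tbx4 were lowest in fibroblast-like cells among the types with over 500 cells. The smaller tendon-like type had lower Tbx4 values still, at 9.60 and 5.12, with intervals overlapping those of fibroblast-like cells. En1 was high in the same fibroblast-like cells, at 16.7 and 18.7, against 0.948 and 4.70 in SSPC-2-like cells, while Lmx1b gave 9.89 and 7.09 in fibroblast-like and 11.4 and 4.41 in SSPC-2-like cells. In thinned mesenchymal cells Tbx5 and Pitx1 were together in 4 control cells where the product of the shares gives 6.01, and in 9 Piezo1 fl/fl cells against 11.3. Tbx5 and Tbx4 were together in 2 control cells against 3.58 and in 5 Piezo1 fl/fl cells against 3.41. Tbx5 and Hoxc10 were together in 22 against 21.8 and in 24 against 33.9. En1 and Lmx1b were together in 2 cells against 1.97 and in 2 against 2.198. These pairs were chosen after the levels were seen, and at these counts a departure from the product would have been hard to detect.

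A pair of Hox genes outside the members stood out in tendon-like control cells. Hoxb9 gave 22.4 CPM there (28 UMIs in 22 of 213 cells), against 0.322 in fibroblast-like and 1.95 in Chad-led cells, and 7.17 in tendon-like cells of the Piezo1 fl/fl library (14 UMIs in 12 of 357 cells). Hoxd13, a gene of the most distal limb, gave 17.6 (22 UMIs in 16 cells) in tendon-like control cells and 1.54 (3 UMIs) in those of the Piezo1 fl/fl library. Both were picked out after their values were seen.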
